A study of Mus musculus with 2 samples.

Results

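Chromosomes are pulled apart in mitosis by microtubules that attach to the kinetochore, a protein plate built on the centromere of each chromosome. The centromere is marked by the histone variant CENP-A, on which an inner layer of CENP proteins assembles, and this layer carries the outer complexes that hold the microtubule. The spindle checkpoint delays anaphase while any kinetochore lacks an attachment, and the chromosomal passenger complex corrects faulty attachments. The transcripts of many of these proteins are made mainly in G2 and mitosis.

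The 39 genes described here encode the parts of this machinery: 4 load the centromeric histone or are that histone, 11 form the inner kinetochore, 13 the outer kinetochore and its corona, 6 the checkpoint, and 5 the passenger complex with shugoshin. They were chosen as a named list, and their values are those of array probe sets whose only annotated gene symbol is a current or former name of a listed gene. Of the 45037 non-control probe sets, 85 met this rule, for 38 of the 39 genes. The exception was Hjurp, the chaperone that deposits CENP-A. All 5 of its probe sets carry further symbols, which GRCm38.p6 lists as synonyms of Hjurp. Probe sets with several symbols were left out, so the values of these 5 are not used here.

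RNA came from 2 cultured mouse osteosarcoma lines, with 1 Affymetrix Mouse430_2 array for each. Dunn is the parental line and is labelled non-metastatic, and LM8 is its subline, labelled highly metastatic. Both were grown in the same serum-supplemented medium, and no treatment was given. LM8 stands for 1 selected derivative of 1 parental line, and no array was repeated, so the differences have no replicate check and no p-value is given. The comparison asked how transcript levels differ with the capacity of these lines to metastasise. In RNA from a whole culture, fewer dividing cells and less RNA per dividing cell cannot be told apart.

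Osteoblast lineage genes were present on both arrays. The type I collagen gene Col1a1 gave 2410.2 in Dunn and 3553 in LM8, the alkaline phosphatase gene Alpl 1272 and 1747, and the osteoblast transcription factor gene Sp7 690.4 and 747. Of 8 such genes, 6 were measured, and Ibsp (240.4 and 97.1) and Pth1r (1119.7 and 495) were 2-fold lower in LM8. The osteocyte gene Dmp1 lay on both arrays below the floor, the median signal of the array. Of 12 markers of macrophages and other blood cells, 8 were measured, and their summed signal was 1029.9 in Dunn and 504 in LM8, mostly from Fcer1g. All 8 had a lower signal in LM8, with Csf1r and Lyz2 at least 2-fold lower, while Ptprc, Itgam, C1qa and C1qb were below the floor on both arrays. With all 18 bacterial hybridisation controls as the scale, none of these osteoblast or blood cell markers was 2-fold lower in LM8 and 2 of the 6 osteoblast genes were 2-fold higher. Their part in the results below was not tested. The ratio of the 3′ to the 5′ Gapdh control signal was 0.708 in Dunn and 0.789 in LM8.

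The genes of the chromosome attachment machinery were mostly higher in LM8. All 38 genes with a probe set were measured, meaning that at least 1 array lay above its floor (21.2 for Dunn and 19.0 for LM8). On the probe set of highest mean signal, 26 of the 38 (68.4%) were at least 2-fold higher in LM8, against 6.51% of all 11830 measured genes. None of the 38 was 2-fold lower, against 8.84% of all genes, and 12 lay between. At least 4-fold higher were 11 genes (28.9%), against 1.18% of all genes. The median log2 ratio of LM8 over Dunn was 1.58, whereas that of all measured genes was -0.08.

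Every one of these 38 probe sets lay above the floor on both arrays, so none of the main ratios is a bound. The ratios ran from -0.42 to 2.66, and 36 of 38 were above 0, against 44.7% of all genes. The genes nearest to the 2-fold line were Spc24 (1.99-fold higher), Cenpm (1.94-fold) and Dsn1 (1.83-fold) below it and Sgo1 (2.51-fold), Bub1b (2.56-fold) and Oip5 (2.62-fold) above it. No gene lay between Spc24, just under the line, and Sgo1. Over all genes, the higher ones made up 42.4% of those 2-fold apart, 56.9% when the arrays were scaled on their medians, and 93.2% when they were scaled on all 18 bacterial hybridisation controls. With the 12 of these controls that lay above the floor on both arrays, a choice made after their values were seen, this share was 65.9%. In these 3 scalings 29, 34 and 30 of the 38 genes were 2-fold higher, against 8.66%, 28.7% and 10.5% of all genes, and none was 2-fold lower. Nsl1 turned to a ratio above 0 in each of them, and Zwint only with all 18 controls, where its log2 ratio was 0.32.

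**Figure D1:**
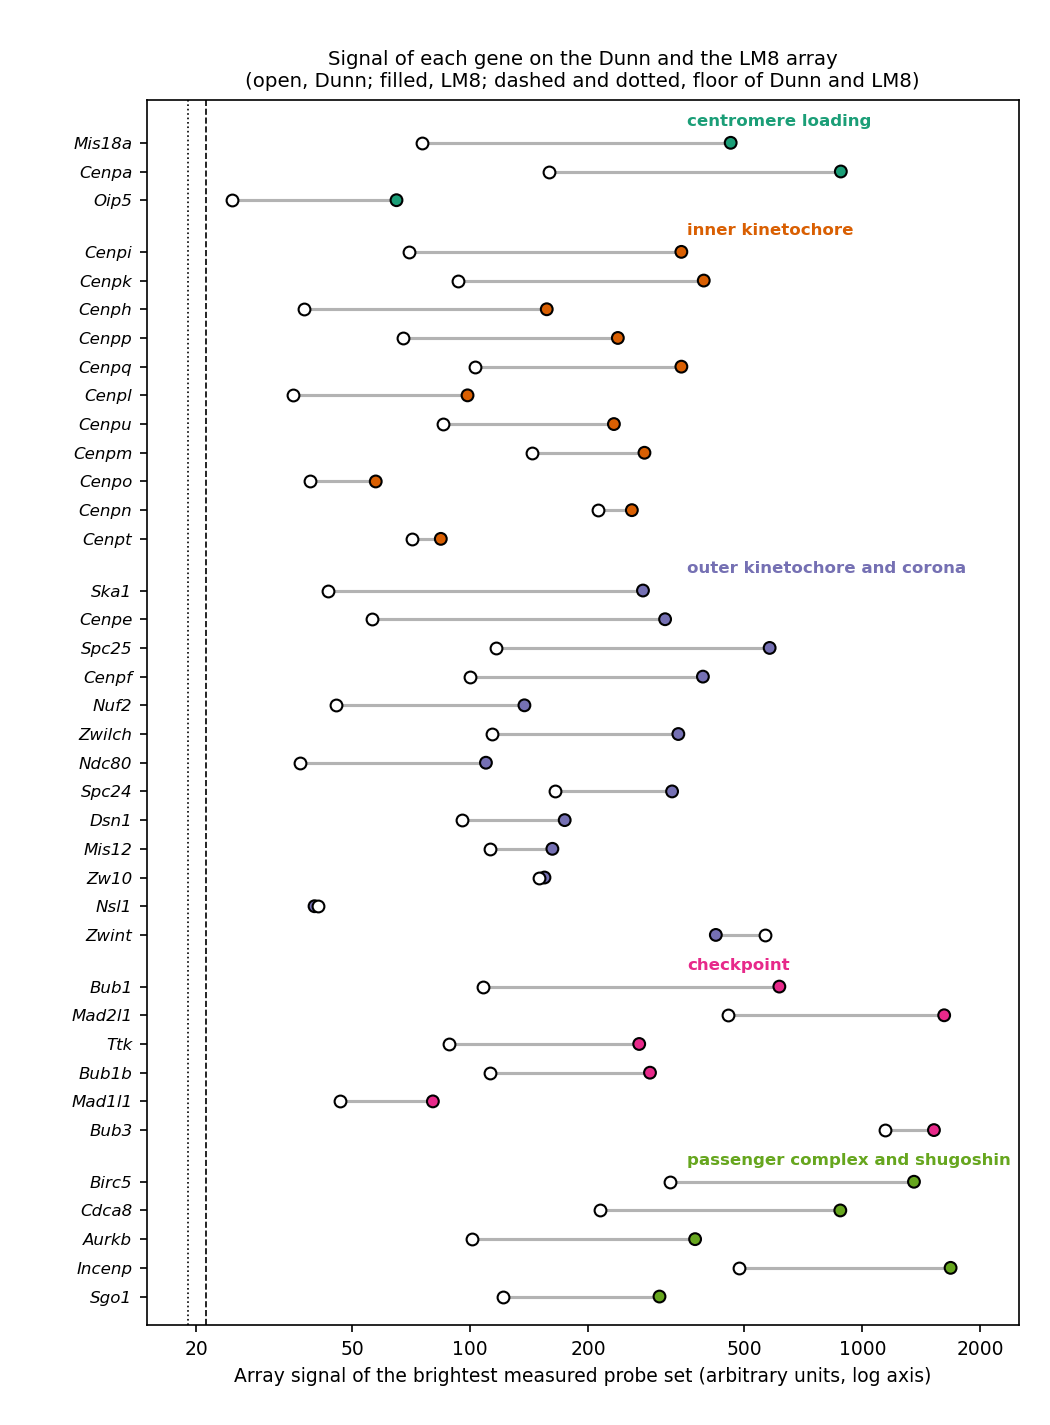
Signal of the brightest measured probe set of each of the 38 genes on the Dunn array (open circles) and the LM8 array (filled circles), on a log axis in arbitrary units, with genes grouped by role and sorted by ratio. The dashed and dotted lines are the floors of the 2 arrays at 21.2 and 19.0; the filled circle lies to the right of the open one in 36 of 38 genes, and Zwint and Nsl1 are the exceptions.

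The genes that mark the centromere for CENP-A were all higher in LM8. Mis18a, a subunit of the complex that licenses the centromere for new CENP-A, had a signal of 75.4 in Dunn and 461 in LM8, or 6.12-fold higher. Its second probe set, with 57.1 and 311, gave a log2 ratio of 2.45 beside 2.61 for the first, so both probe sets of Mis18a placed LM8 well above Dunn. Cenpa, which encodes the centromeric histone itself, had 158.6 in Dunn and 881 in LM8, or 5.55-fold higher, and a dimmer probe set with 27.1 and 77.6. Oip5, which encodes the partner of Mis18a in the licensing complex, had 24.8 and 64.9, or 2.62-fold higher. The Dunn signal of Oip5 lay just above the floor, and with a pseudocount at the floor its log2 ratio of 1.39 became 0.87. Of the 3 genes in this group, 3 were 2-fold higher, with a median log2 ratio of 2.47.

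The inner kinetochore genes were split by subunit. At least 2-fold higher in LM8 were 7 of 11, the other 4 were less than 2-fold apart, and the median log2 ratio was 1.48. Cenph, Cenpi and Cenpk, whose proteins form 1 subcomplex with that of Cenpm, had the largest differences on their brightest probe sets. Cenpi had a signal of 69.7 in Dunn and 345 in LM8, or 4.95-fold higher. Cenpk had 93.3 and 394, or 4.22-fold higher, but its 2 dimmer probe sets, with Dunn below the floor, gave log2 ratios of 0.92 and 0.08. Cenph had 37.8 and 156.8, or 4.15-fold higher, but its log2 ratio was 0.71 with the floor raised to the 75th percentile of each array. The fourth gene of this subcomplex, Cenpm, stood at 143.6 and 278, a difference of 1.94-fold.

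Cenpo, Cenpp, Cenpq and Cenpu encode a further subcomplex, which helps to strengthen microtubule attachment. Cenpp had a signal of 67.3 in Dunn and 238 in LM8, or 3.54-fold higher, and its 2 other probe sets gave log2 ratios of 2.34 and 1.62. The last of these had Dunn below the floor, so its ratio is a bound. Cenpq had 103.0 and 346, or 3.36-fold higher, and Cenpu had 85.4 and 233, or 2.72-fold higher. The dimmer probe set of Cenpu, with 32.2 and 32.7, gave a log2 ratio of 0.02. Cenpo had signals of 39.1 and 57.4, a log2 ratio of 0.56, while its other measured probe set had 32.7 in Dunn and 13.8, below the floor, in LM8. The 2 measured probe sets of Cenpo therefore opposed each other, and its direction is not settled.

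Cenpl and Cenpn encode partners in a subcomplex in which CENP-N contacts the CENP-A nucleosome. Cenpl had a signal of 35.3 in Dunn and 98.5 in LM8, or 2.79-fold higher. Cenpn had 212 and 258, a log2 ratio of 0.29, on its brighter probe set. Its dimmer probe set had 80.4 and 232, a log2 ratio of 1.53, so whether Cenpn passes 2-fold depends on the probe set. Cenpt, whose protein binds DNA at the inner plate and recruits the NDC80 complex, had 71.0 and 84.2, a log2 ratio of 0.25. Its partner genes from outside the list differed among themselves, with 128.2 and 428 for Cenpw (3.34-fold higher), 51.6 and 155.5 for Cenps (3.01-fold higher) and 376 and 405 for Cenpx (1.08-fold).

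In the outer kinetochore, the NDC80 complex, the main microtubule binder, and the MIS12 complex, which ties it to the inner plate, differed in their counts. Among NDC80 genes, Spc25 had a signal of 116.4 in Dunn and 580.1 in LM8, or 4.98-fold higher, and a dim probe set with 22.1 and 34.3. Nuf2 had 45.6 and 137.5, or 3.02-fold higher, and Ndc80 had 36.9 and 109.7, or 2.98-fold higher. Spc24, with 164.4 and 327, was 1.99-fold higher, just under the line. The 4 genes had a median log2 ratio of 1.58, and 3 of them were 2-fold higher, against 6.51% of all measured genes. With the floor at the 75th percentile, the log2 ratios of Ndc80 and Nuf2 fell to 0.19 and 0.52, and Spc25 alone of the 4 was 2-fold higher.

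None of the MIS12 complex genes was 2-fold apart in either direction, and neither were 10014 of all 11830 measured genes. Dsn1 had a signal of 95.1 in Dunn and 174 in LM8, a log2 ratio of 0.87, which became 1.02 and passed 2-fold with scaling on array medians. Mis12 had 112.2 and 162.03, a log2 ratio of 0.53, and Nsl1 had 41.0 and 40.1, a log2 ratio of -0.03. The second probe set of Nsl1 had 34.8 in Dunn and fell below the floor, at 7.82, in LM8. Pmf1, the fourth subunit gene and not on the list, had 72.3 and 125.4, a log2 ratio of 0.80. The median log2 ratio over these 4 genes was 0.66. This grouping into complexes followed after the values were seen, and the difference between complexes was not tested.

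Of the corona and microtubule-coupling genes, Ska1 had the largest ratio by its brightest probe set, and with its probe sets averaged its log2 ratio was 1.23. Ska1, whose protein keeps kinetochores on shrinking microtubules, had a signal of 43.5 in Dunn and 276 in LM8, or 6.34-fold higher. A second, dim probe set of Ska1 had 22.1 in Dunn and 5.06, below the floor, in LM8. Cenpe, the kinesin motor that moves chromosomes to the spindle equator, had 56.2 and 314, or 5.59-fold higher, and 17.3 and 72.5 on its other probe set. On that other probe set Dunn lay below the floor. Cenpf, a large corona protein gene, had 100.04 and 392, or 3.92-fold higher, and a probe set with 28.5 and 120.3 gave a log2 ratio of 2.08. The third probe set of Cenpf, with Dunn below the floor, gave 0.42.

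Zwilch and Zw10 encode subunits of the complex that brings dynein and the checkpoint proteins Mad1 and Mad2 to the kinetochore. Zwilch had a signal of 114.0 in Dunn and 339 in LM8, or 2.98-fold higher. Zw10 had 149.6 and 154.7, a log2 ratio of 0.05, so these partners were unlike in their ratios. Kntc1, the third subunit gene and not on the list, had 86.6 and 221, or 2.55-fold higher.

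Zwint, which links this complex to the outer plate, had the lowest ratio of the list. Its brightest probe set had a signal of 565 in Dunn and 423 in LM8, a log2 ratio of -0.42. The 4 dimmer measured probe sets of Zwint all had ratios above 0, from 0.08 to 1.18, the last with signals of 45.2 and 102.4. The probe sets of Zwint thus disagreed in direction, and their mean log2 ratio was 0.48. Over the outer kinetochore and corona, 7 of 13 genes were 2-fold higher and the other 6 less than 2-fold apart. Their median log2 ratio was 1.57. The count was 4 of 13 where every measured probe set of a gene had to be 2-fold apart, and the median was 0.93 over 12 genes with the floor raised to the 75th percentile of each array.

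Among checkpoint genes, LM8 was at least 2-fold higher in 4 of 6 and less than 2-fold apart in 2. Their median log2 ratio was 1.48. Bub1, a kinase that gathers checkpoint proteins at the kinetochore, had a signal of 107.6 in Dunn and 614 in LM8, or 5.71-fold higher. Its other probe set was below the floor on both arrays. Mad2l1, which encodes the inhibitor Mad2 that holds back the anaphase-promoting complex, had 453 and 1616, or 3.57-fold higher. Ttk, the kinase that starts checkpoint signalling, had 88.5 and 269.7, or 3.05-fold higher, while its dimmer probe set had 32.3 and 35.3.

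Bub1b, which encodes the checkpoint effector BubR1, had a signal of 112.3 in Dunn and 287 in LM8, or 2.56-fold higher, and its other measured probe set gave a log2 ratio of 2.08. The 2 genes under 2-fold were Mad1l1 and Bub3. Mad1l1, which encodes the anchor of Mad2 at the kinetochore, had 46.7 and 80.3, a log2 ratio of 0.78. Bub3, the binding partner of both Bub1 and BubR1, had 1141 and 1522, a log2 ratio of 0.42. The 5 measured probe sets of Bub3 ranged from -0.58 to 0.42 and each was less than 2-fold apart, so Bub3 was unlike Bub1 and Bub1b in this comparison.

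The passenger complex was higher in LM8 in all of its 4 genes, with log2 ratios from 1.79 to 2.06 on the brightest probe sets. Birc5, which encodes survivin, had a signal of 324 in Dunn and 1353 in LM8, or 4.18-fold higher. Cdca8, which encodes borealin, had 214 and 878, or 4.11-fold higher. Aurkb, the kinase of the complex, had 101.1 and 374, or 3.71-fold higher, and Incenp, its scaffold, had 485 and 1678, or 3.46-fold higher. The other probe set of Aurkb gave a log2 ratio of 2.30, and the 3 dimmer measured probe sets of Incenp gave 0.61 to 1.47. Aurkb had no value without probe sets named _x_at or _s_at, and Incenp then had a log2 ratio of 1.41. Sgo1, which encodes shugoshin, the protector of centromeric cohesion, had 121.1 and 304, or 2.51-fold higher. The other probe set of Sgo1 had 38.6 and 97.5, a log2 ratio of 1.34 against 1.33. With Sgo1, all 5 genes of the group were 2-fold higher and the median log2 ratio was 1.89. Without probe sets named _x_at or _s_at, the median was 1.68 over 4 genes, all of them 2-fold higher.

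The only spread at hand was that between probe sets of 1 gene, which can come from probe quality and transcript forms and says nothing of replicate error. Of the 85 probe sets, 70 were measured, and 41 of these (58.6%) were at least 2-fold higher in LM8, against 5.91% of all measured probe sets. None was 2-fold lower, against 7.79%. Of 20 genes with several measured probe sets, 8 had all of them 2-fold higher (Cenpa, Mis18a, Cenpp, Cenpe, Bub1b, Aurkb, Cdca8 and Sgo1), against 2.05% of all genes with several. A further 9 had at least 1 of them 2-fold higher, and 3 (Cenpo, Nsl1 and Bub3) had none. The 41 and the 8 count a probe set each of Cenpp and Cenpe with Dunn below the floor. These were measured only through LM8, and their ratios are bounds.

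For 4 genes, Cenpo, Ska1, Zwint and Bub3, the measured probe sets lay on both sides of 0. Between probe sets of a gene, the log2 ratios had a median SD of 0.62 over the 20 genes, and of 0.30 over all 5521 genes with several measured probe sets. Cdca8 (SD 0.07, n = 3 probe sets) and Mis18a (SD 0.12, n = 2) were among the closest, and Ska1 (SD 2.03, n = 2) was the widest. Choosing for each gene the measured probe set with the smallest difference left 19 of 38 genes 2-fold higher, against 4.38% of all genes, and a median log2 ratio of 1.16.

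**Figure D2:**
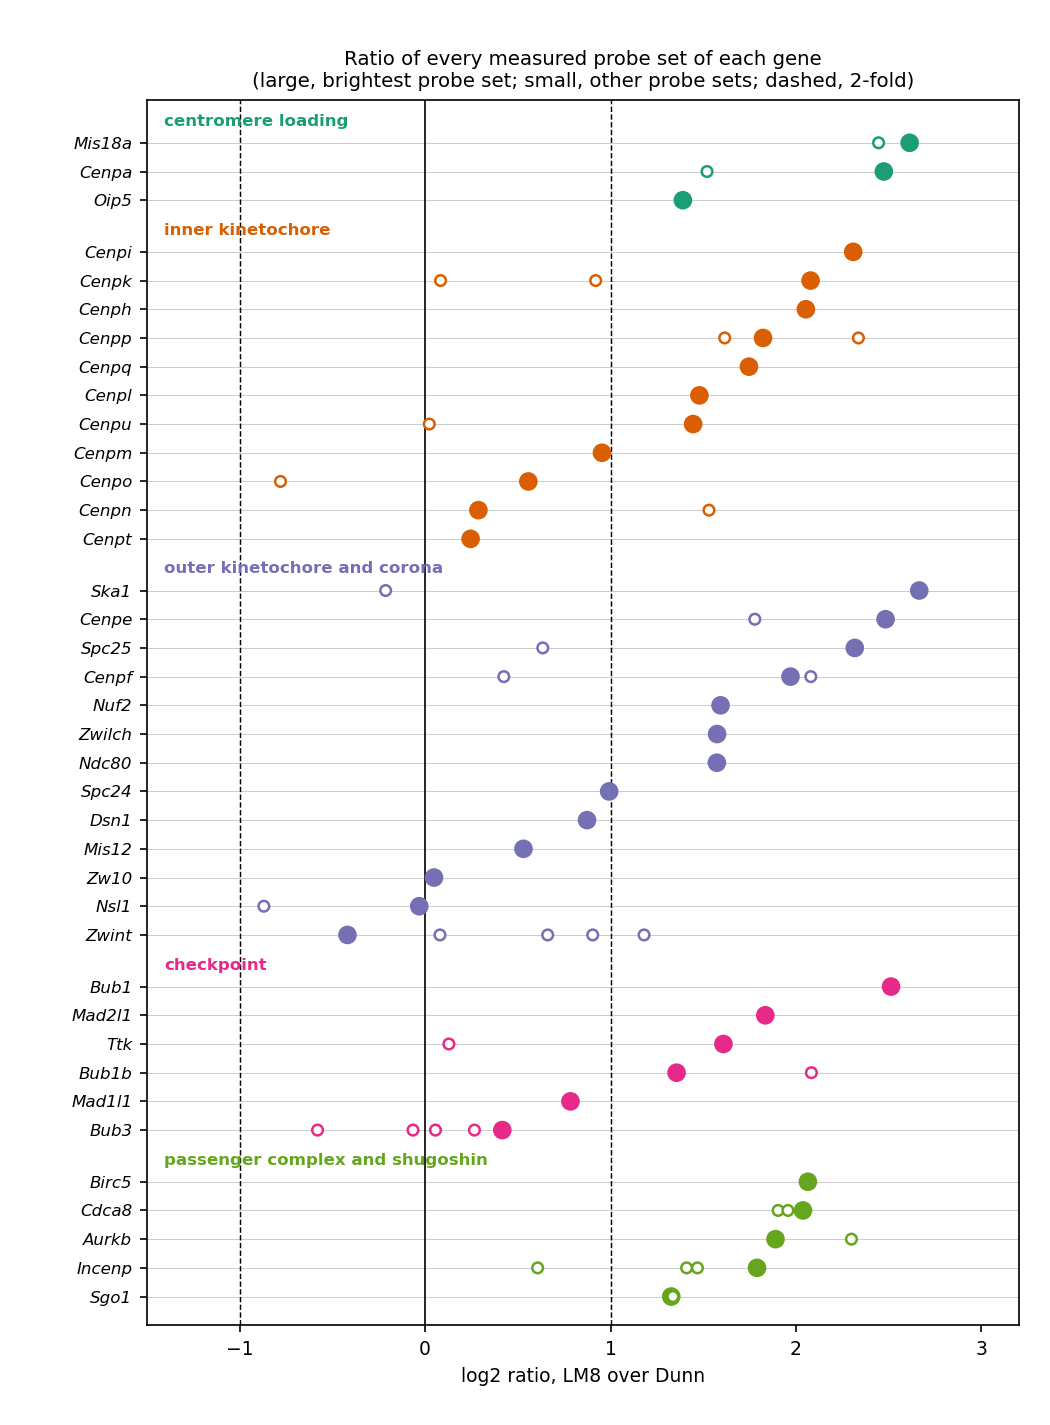
Log2 ratio of LM8 over Dunn for the 70 measured probe sets of the 38 genes, with the brightest probe set of each gene as a large filled circle and the others as small open circles. Dashed lines mark 2-fold; most large circles lie right of the upper line, no circle lies left of the lower one, and small circles on the other side of 0 are seen for Cenpo, Ska1, Zwint and Bub3.

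Other genes of the same pathway were taken from a list set by function, with earlier results of these data known. Of 22 genes, 21 were measured. LM8 was at least 2-fold higher in 13 of these, against 6.51% of all measured genes. The other 8 were less than 2-fold apart, and the median log2 ratio of the 21 was 1.40. Haspin and Ska3 counted as measured only through LM8, since both lay below the floor in Dunn. Without them, 11 of 19 genes were 2-fold higher and the median was 1.35. Kif18a, a kinesin that damps chromosome movements, had a signal of 22.5 in Dunn and 106.4 in LM8, or 4.74-fold higher, although the Dunn signal lay just above the floor. Cdc20, the activator of the anaphase-promoting complex that the checkpoint restrains, had 352 and 1651, or 4.70-fold higher. Spdl1, a dynein adaptor of the corona, had 55.0 and 255, or 4.64-fold higher. Haspin, the kinase that directs the passenger complex to centromeres, had 6.50, below the floor, and 99.0, or at least 4.68-fold higher.

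The genes of that list with a ratio below 0 were Itgb3bp, Mad2l1bp, Cenpb, Bod1 and Cenpc1. Itgb3bp, which encodes CENP-R, had the lowest log2 ratio, -0.91, with a signal of 49.2 in Dunn and 26.2 in LM8. Mad2l1bp, which takes part in switching the checkpoint off, had 232 and 139.9. Cenpc1, the gene of the inner scaffold protein CENP-C, had 137.1 and 133.2. With the floor at the 75th percentile, 8 of 19 measured genes of the list were 2-fold higher, against 5.13% of all genes. The median log2 ratio of the 19 was 0.69.

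Neighbouring cell cycle lists are given for scale. Of 25 measured genes of mitotic cyclins, kinesins, condensin and cytokinesis, LM8 was at least 2-fold higher in 22 and less than 2-fold apart in 3, with a median log2 ratio of 1.92. Of 29 measured genes of DNA replication, 13 were 2-fold higher and 16 less than 2-fold apart, with a median of 0.99. Tyms counted as measured only through LM8, since it lay below the floor in Dunn. Without it, 12 of 28 genes were 2-fold higher and the median was 0.97. The attachment machinery, with a median of 1.58, lay between the mitotic and the replication list in value, and the differences between lists were not tested. No measured gene of these 2 lists was 2-fold lower in LM8, against 8.84% of all measured genes.

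**Figure D3:**
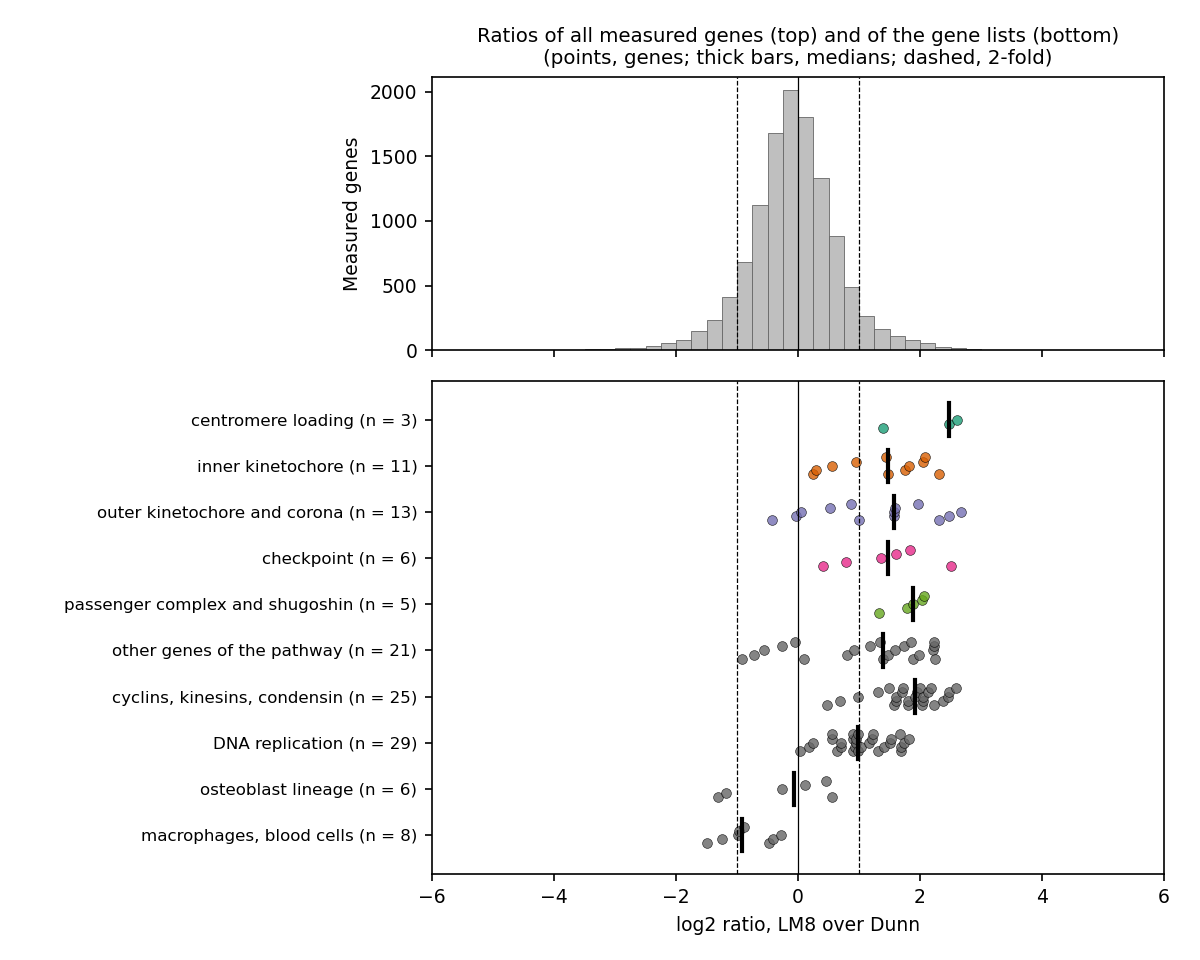
Top, histogram of the log2 ratio of LM8 over Dunn for all 11830 measured genes; bottom, the ratio of each gene in the role groups and in the other lists, with thick bars at the medians and dashed lines at 2-fold. The role groups have medians from 1.48 to 2.47, while the histogram is centred near the median of all genes, -0.08, and the markers of macrophages and other blood cells have a median of -0.92.

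The promoters of the 38 genes and Hjurp were examined for letters known from late cell cycle genes, since most of the genes differed in 1 direction. These letters are the cell cycle homology region (CHR), TTTGAA, which binds the DREAM and MuvB complexes, its variant TTCGAA, and the CCAAT box, CCAAT, which binds NF-Y. The RefSeq promoter table (GRCm38.p6) held 37 entries for 33 of the 39 genes, each running from 250 bases before to 50 bases after an annotated start, and both strands were searched. The CHR was found in 14 of 37 entries (37.8%, exact 95% binomial interval 22.5 to 55.2%), against 17.9% of all 32851 entries. The CCAAT box was found in 25 (67.6%, interval 50.2 to 82.0%), against 37.4%. Both were found in 12 (32.4%), against 6.95%, and the variant in 5 (13.5%), against 1.56%. Entries of 1 gene overlap in part, and the intervals cover counting error only.

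For the CHR, the higher share lay after the start. In the first 50 bases from the start, a window chosen after the matches were seen, 9 of 37 entries (24.3%) held the CHR, against 2.25% of all. In the 150 bases before the start, 3 of 37 (8.11%) held it, against 9.07% of all. The 9 entries were those of Hjurp, Cenpa, Oip5, Spc25, Cenpf, Ndc80, Ttk, Bub1b and Cdca8. The CCAAT box was found in 18 of 37 entries (48.6%) in those 150 bases, against 24.5% of all, and in 6 of 37 (16.2%) in the first 50 bases from the start, against 5.22% of all. A match is a description of these letters and not evidence of binding.

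**Figure D4:**
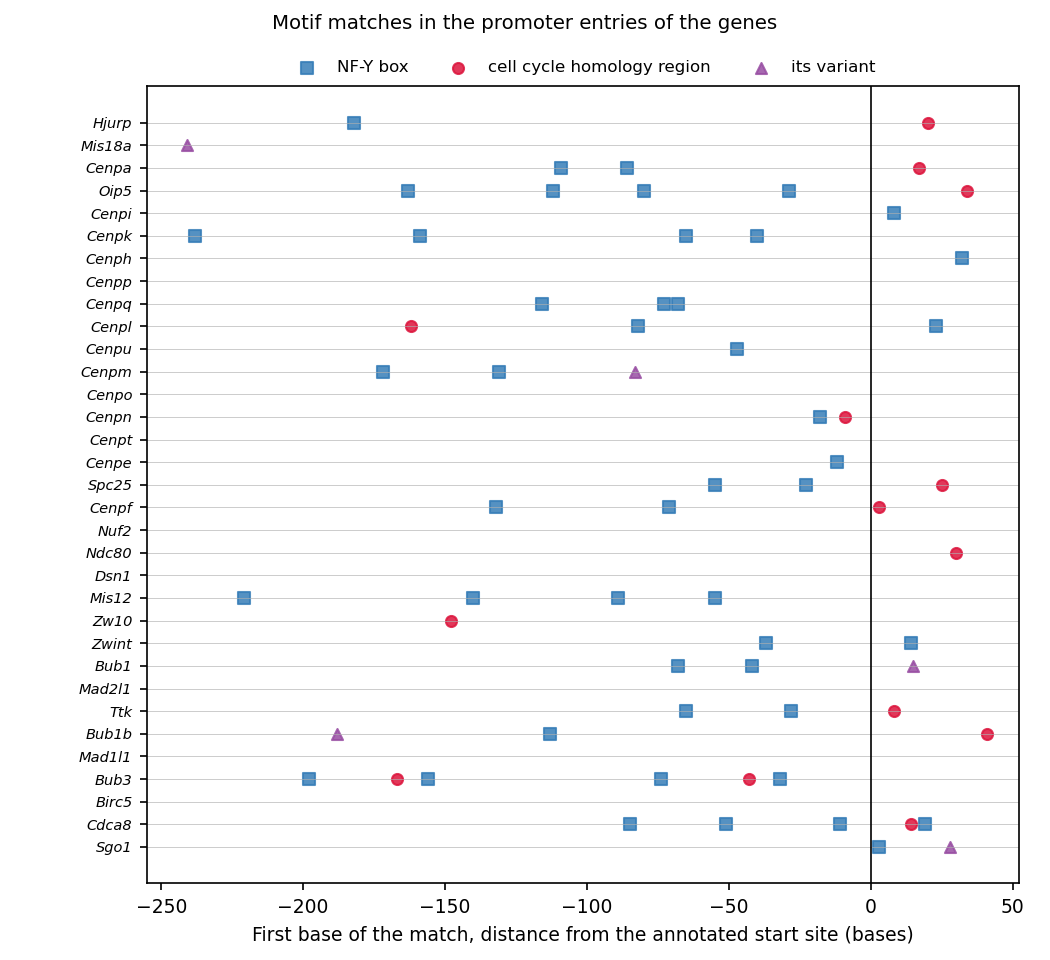
Position of each match in the promoter entries of 33 genes, given as the distance in bases of its first base from the annotated start site, with squares for the CCAAT box bound by NF-Y, circles for the CHR and triangles for its variant. Circles lie mostly just right of the start line, in 9 genes, and squares mostly left of it.

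The stretches before the start are shown for 1 gene of each role that held a CHR after its start and at least 2 CCAAT boxes before it, and for Mis18a, which was 6.12-fold higher and held neither the CHR nor the CCAAT box (its 1 match to the variant begins 241 bases before the start, outside the run). Each run is the 140 bases before the annotated start, 5′ to 3′ on the gene's strand, in GRCm38.p6 coordinates. Capitals mark CCAAT, or ATTGG where the box lies on the other strand. No inner kinetochore gene met the rule.
Cenpa, chr5:30666746-30666885, plus strand: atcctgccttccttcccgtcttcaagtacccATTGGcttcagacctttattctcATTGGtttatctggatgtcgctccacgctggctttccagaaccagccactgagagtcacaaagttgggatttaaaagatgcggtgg
Spc25, chr2:69206214-69206353, minus strand: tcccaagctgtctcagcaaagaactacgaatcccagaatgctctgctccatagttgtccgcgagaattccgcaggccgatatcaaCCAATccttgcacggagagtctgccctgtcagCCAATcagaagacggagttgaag
Ttk, chr9:83834549-83834688, plus strand: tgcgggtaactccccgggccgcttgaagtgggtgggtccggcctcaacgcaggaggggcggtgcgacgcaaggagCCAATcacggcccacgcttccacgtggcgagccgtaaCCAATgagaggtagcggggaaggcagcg
Cdca8, chr4:124936918-124937057, minus strand: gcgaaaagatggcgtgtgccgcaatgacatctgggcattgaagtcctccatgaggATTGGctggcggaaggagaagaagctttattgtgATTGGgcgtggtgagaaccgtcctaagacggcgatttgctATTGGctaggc
Mis18a, chr16:90727372-90727511, minus strand: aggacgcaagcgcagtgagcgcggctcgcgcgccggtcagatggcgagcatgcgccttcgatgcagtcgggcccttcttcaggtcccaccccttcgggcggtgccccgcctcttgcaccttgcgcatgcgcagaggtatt

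The CHR sites of Cenpa, Spc25 and Ttk, in the first bases after the start, are shown as well. That of Cdca8, which begins at base 14 from the start, is not shown. Each run below has 20 bases, with TTTGAA, or TTCAAA where it lies on the other strand, in capitals. Different motifs overlapped at 1 place in the 37 entries.
Cenpa, chr5:30666895-30666914, plus strand: gtgatttTTTGAActgctgg
Spc25, chr2:69206177-69206196, minus strand: tggagagTTTGAAattgaaa
Ttk, chr9:83834689-83834708, plus strand: gggaaatTTCAAAcgtgttt

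Genes with and without a match anywhere in an entry overlapped in their ratios. Of the 12 measured genes with a CHR anywhere in an entry, 9 were 2-fold higher, with log2 ratios from 0.05 to 2.47 and a median of 1.53. Of the 20 without it, 13 were 2-fold higher, with ratios from -0.42 to 2.61 and a median of 1.67. Of the 21 genes with a CCAAT box, 16 were 2-fold higher (median 1.61), and of the 11 without it, 6 were (median 1.57). Split by position, the 3 measured genes with a CHR in the 150 bases before the start (Cenpn, Bub3 and Zw10) were all less than 2-fold apart, with log2 ratios from 0.05 to 0.42. Cenpl, with a CHR that begins 162 bases before the start and so outside these 150, was 2.79-fold higher. The 8 with a CHR in the first 50 bases from the start were all 2-fold higher, with ratios from 1.36 to 2.47, and 14 of the other 24 were 2-fold higher, with ratios from -0.42 to 2.61. This window was chosen after the matches were seen, and the difference was not tested. Zwint held 2 CCAAT boxes and no CHR, Bub3 held both motifs, and neither was 2-fold apart. Mad2l1, Birc5, Cenpp and Nuf2 held none of the 3 motifs in their entries. They were 3.57-fold, 4.18-fold, 3.54-fold and 3.02-fold higher in LM8. Cenpo, Cenpt, Dsn1 and Mad1l1 also held none of them and were less than 2-fold apart, with log2 ratios from 0.25 to 0.87.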

How the data were processed

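Signals were deposited by the authors as linear intensities per probe set, computed with MAS5 per the submitters' processing notes, for 1 array of each line; its version and settings are not given in the sources used here. Detection calls were not used here. The 64 control probe sets were set aside and each array was scaled to a 2% trimmed mean of 100, a factor of 1.00 on both. A signal under the array's median was set to that floor, and a probe set was measured where at least 1 array lay above its floor. Symbols were those of the platform annotation, updated by gene identifier against GRCm38.p6 (99.4% of 34958 probe sets with 1 symbol matched); 932 probe sets with several symbols and 9160 unnamed ones were not named. A gene took its measured probe set of highest mean log2 signal. Ratios are log2 of LM8 over Dunn, and at least 2-fold is a size rule, not a test. The number of arrays limits the precision.

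Every listed gene is named; of the other lists, up to 4 with the largest ratios in size and those of a short count. The genes and lists were chosen with earlier results of these data known. The steps were tested on simulated data, with 4-fold changes in genes well above the floor. Smaller changes and dimmer genes, such as Oip5, were not covered. Alternatives covered scaling, floor, gene summary, size rule and promoter window. Tables were handled with pandas 2.3.3 and numpy 2.4.6 in Python 3.11.15, intervals came from scipy 1.17.1, the lowess fit from statsmodels 0.14.6 and the plots from matplotlib 3.10.9.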

Additional observations from a re-analysis of the deposited data

How the results depend on the processing

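In the 14 settings tried, the count of listed genes called higher in LM8 ran from 19 to 34, and none was called lower in any. The count was 19 with the smallest ratio, with all probe sets 2-fold and with a 3-fold rule, against 4.38%, 4.36% and 2.49% of all genes. It was 34 with all 18 hybridisation controls, against 28.7% of all genes. The median log2 ratio ran from 1.16 to 2.32 (12 settings). A setting without probe sets named _x_at or _s_at was added after the data were seen. It gave 25 of 37, against 6.67% of all genes, with no value for Aurkb. The floor at the 75th percentile gave 21 of 33, against 5.13% of all genes. Scaling on array medians moved the median of all genes from -0.08 to 0.07. Scaling on all 18 hybridisation controls (mean log2 ratio -0.74) moved it to 0.65. Of these, 6 did not lie above the floor on both arrays and had a mean of -1.72. With the other 12 (mean -0.24), chosen after the values were seen, the median of all genes moved to 0.16. These 3 scalings shift every gene alike, so the median of the 38 relative to all genes, 1.67, cannot change with them; it was 1.21 with the smallest ratio, 1.45 with the pseudocount and 1.51 with the floor at the 75th percentile. A value was taken as moved if it shifted by over 0.46, the pooled SD between probe sets of a gene, or a count by over 1.5 times.

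With the floor at the 75th percentile, the outer kinetochore median was 0.93. The other genes of the pathway then gave 8 of 19 higher, against 5.13% of all genes, and a median of 0.69. With probe sets averaged, the centromere loading median was 2.00. With the smallest ratio of each gene, the medians were 1.52 for centromere loading, 0.95 for the inner and 0.63 for the outer kinetochore, where 4 were higher; Ska1 reversed to -0.21, with LM8 below the floor. Outer kinetochore genes with all probe sets 2-fold higher were also 4. With all 18 controls, the medians were 2.32 for the 38 genes, 3.21 for centromere loading, 2.22 for the inner kinetochore, 2.31 for the outer kinetochore, 2.22 for the checkpoint, 2.63 for the passenger complex, 2.13 for the other genes of the pathway, 2.66 for the mitotic and 1.72 for the replication list. The replication count of 13 became 26 with all 18 controls, against 28.7% of all genes. It was 21 with the 12 controls or with array medians, against 10.5% and 8.66%. It was 8 with the smallest ratio or all probe sets, against 4.38% and 4.36%, and 5 at 3-fold, against 2.49%. In the 150 bases before the start, the motif shares were 8.11% (CHR), 2.70% (variant), 48.6% (CCAAT) and 5.41% (CHR and CCAAT). The cause of these shifts was not tested beyond the construction of each setting. No paired analysis was possible because each line has 1 array. Signals near the floor, such as those of Oip5 in Dunn, have the least certain ratios.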
